A study of Mus musculus with 12 samples.

Results

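The genes described here are the source genes that made the most different circular RNAs (circRNAs) in mouse thymus. A source gene was taken when 8 or more rows of the circRNA table named it, and 77 of 2879 source genes (2.67%) met this rule. They held 792 of the 6082 rows that name a source gene (13.0%). Of these rows, 567 were built from several annotated exons, 58 lay in 1 exon, 80 joined an exon to an intron, 54 were intronic and 33 were antisense. The members proper were the multi-exon circles that the authors could not match to circBase, a public circRNA catalogue, and are called uncatalogued here. There were 524 of them among all 6300 rows (8.32%), from 76 of the 77 genes. Zranb1, which encodes a deubiquitinase, had no member, because its multi-exon circles all matched circBase. The genes were thus selected on the number of rows, a measured value that grows with the total counts of a gene, so the high counts of these genes below are a description and not a finding.

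The study sequenced thymus of male C57BL/6 mice at 2 weeks (2W), 6 weeks (6W) and 3 months (3M), with 2 biological replicates at each age and no other treatment. RNA was depleted of ribosomal RNA, and the libraries kept the strand of each read. The libraries come from whole thymus, so fewer cells of a type and less RNA per cell cannot be told apart. A circRNA count is the number of reads across its back-splice junction. Totals of these counts were 10663 and 11117 at 2W, 18740 and 21914 at 6W, and 11125 and 15396 at 3M. The same libraries held 16355849 to 22387100 estimated mRNA counts. Markers of double-positive thymocytes summed to 14755 and 16421 CPM (counts scaled to the library total) at 2W, 13765 and 13723 at 6W, and 11858 and 11916 at 3M, lower at each later age without overlap. B cell markers were 24.2 and 23.7 CPM at 2W, 44.4 and 37.4 at 6W, and 40.7 and 27.0 at 3M. Adipocyte markers summed to 32.1 and 35.1 CPM at 2W, 86.7 and 93.9 at 6W, and 184 and 102 at 3M, with all 4 of them detected. Myeloid markers were 208 to 221 CPM at 2W and 445 to 525 CPM at the later ages, and red blood cell markers reached 1518 CPM in 3M replicate 2 against 277 to 578 elsewhere. Fibroblast and endothelium markers were 303 and 300 CPM at 2W, 290 and 267 at 6W, and 217 and 223 at 3M. The part of these marker differences in the results below was not tested.

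A circRNA forms when the splicing machinery joins the end of an exon back to its own start or to that of an exon upstream in the same transcript. The upstream end is called the back-splice acceptor and the downstream end the back-splice donor, and a gene with several usable ends can make several circles. Circles have no free ends and resist exonucleases, so they can outlast the mRNA of the same gene. The thymus is the organ in which T cells develop, and most of its cells are dividing or selecting thymocytes.

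Satb1 and Itpr2 stood far from the other genes in number of rows. Satb1, which encodes a chromatin organizer needed in thymocyte development, had 29 rows and 5228 counts over the 6 libraries. Itpr2, a calcium channel of the endoplasmic reticulum, had 27 rows but only 352 counts. Nfatc3, a calcium-regulated transcription factor of T cells, followed with 15 rows and 328 counts. Ash1l (a histone methyltransferase), Helz (an RNA helicase), Birc6 (a ubiquitin-conjugating inhibitor of apoptosis), Ankhd1 and Vps13b (a lipid transfer protein) had 14 rows each, with 359, 141, 108, 98 and 98 counts. Rere, a transcriptional corepressor, had 13 rows and 463 counts. Among the genes with 12 rows, the most counts fell on Morc3 (1098), Bcl11b (653) and Tlk1 (284). Morc3 encodes a nuclear ATPase, Bcl11b is the transcription factor that commits cells to the T lineage, and Tlk1 encodes a kinase of chromatin assembly. Themis, a T cell receptor signalling protein, had only 11 rows but 2724 counts.

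**Figure D1:**
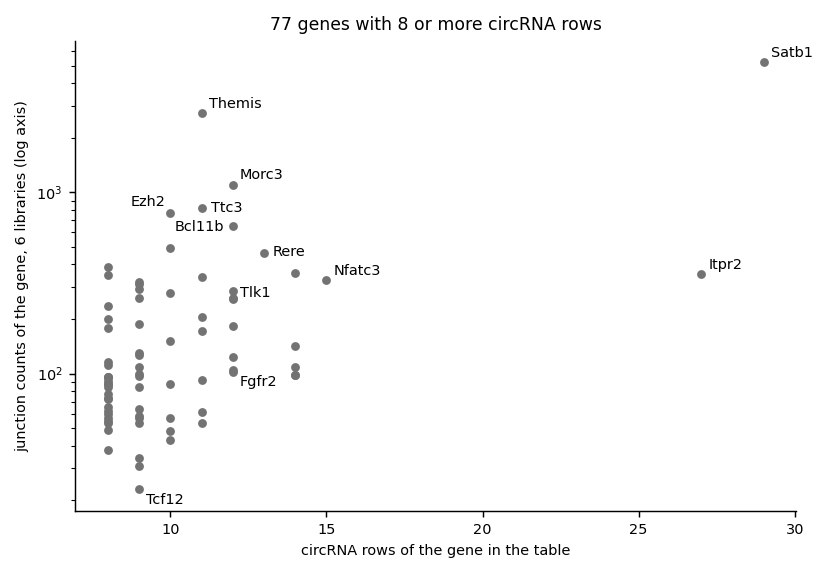
Each point is 1 of the 77 genes, with its number of rows in the circRNA table on the x axis and its junction counts summed over the 6 libraries on a log y axis. Satb1 and Itpr2 have 29 and 27 rows but 5228 and 352 counts, and the genes at 8 rows run from 38 to 387 counts.

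Many rows did not mean many counts. Over the 77 genes the summed counts ran from 23 (Tcf12) to 5228, with a median of 105, and Spearman's rho of row number with counts was 0.439. Over all 2879 source genes the same rho was 0.730. These correlations are across genes of the same libraries and carry no test. Row number followed gene length (rho 0.131) and mRNA level (rho 0.126) little among the 77 genes. The genes were nevertheless long, with a median of 111 kb (18.9 to 597 kb) against 59.2 kb for the 2755 other source genes placed in RefSeq. Their median mRNA level was 37.0 FPKM, a level per transcript length and library size, against 19.5.

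The rule cuts through a continuous range of genes. The 25 genes at exactly 8 rows had a median of 88 counts (38 to 387), led by Elk4 with 387. The 41 genes just outside, at 7 rows, had a median of 79 counts (32 to 901), led by Rasa2 with 901 and Tulp4 with 787. Counting only uncatalogued multi-exon rows would leave 30 genes with 8 or more. Merging rows whose 2 ends lie within 10 bases of each other would leave 73 genes, with Satb1 going from 29 to 26 rows, Bcl11b from 12 to 8 and Morc3 from 12 to 6.

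Most members were rare. Their median total was 6 counts over the 6 libraries, against 5 for the 3515 other uncatalogued multi-exon circles. The lowest total in the table is 2 counts, and 72 members stood at it. At the other end, 22 members had 100 or more, and the top 10 held 46.0% of all 14331 member counts. Members were seen in all 6 libraries in 96 cases (18.3%, against 12.7% of the other uncatalogued multi-exon circles) and in a single library in 105 cases (20.0% against 27.1%). Their median spliced length, which is the length of the annotated exons between both ends, was 630.5 nt (155 to 8872) against 539 nt, and their median genomic span 11600 against 6991 bases. A spliced length divisible by 3 was found in 38.4% of members and 35.5% of the others.

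Not every row lay in the gene it was filed under. For Fgfr2, a fibroblast growth factor receptor gene, 10 of 12 rows with 78 counts lay outside the RefSeq gene, up to 2561 kb away and inside Ate1, Chst15, Fam53b and Eef1akmt2. For B230118H07Rik, 8 of 10 rows with 31 counts lay inside Rag1, the recombinase gene that rearranges antigen receptor genes in thymocytes. None of these 18 rows is a member. A further 2 rows, of Elk4 and Pecam1, lay outside their gene. Leaving out Fgfr2 and B230118H07Rik, chosen after seeing the data, changed the number of members called between 6W and 3M below from 20 to 19, and left that between 2W and 6W and both numbers on summed circles as they were. The mRNA and ratio counts were not rerun without them.

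Splice ends were shared widely within genes. Of the 524 members, 439 (83.8%) shared an acceptor or a donor with another row of their gene. An acceptor was shared by 329 (62.8%), a donor by 268 (51.1%), and 158 shared both with different rows. The 85 members that shared neither held only 4.77% of the member counts. Genes just outside the rule were much alike, since 80.9% of the 199 uncatalogued multi-exon rows of 7-row genes shared an end, and 78.0% of the 132 in 8-row genes. With more rows, a shared end becomes likelier by construction, so this share is a description. The 524 members used 327 acceptors, of which 48 served 3 or more members, and 384 donors, of which 28 did. Donors outnumbered acceptors in 36 genes, acceptors outnumbered donors in 22, and 19 had equal numbers.

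Some genes were built around a single end that took nearly all of their junction counts. Satb1 lies on the minus strand of chromosome 17, and its acceptor at position 51809287 was used by 6 rows with 4859 counts, 92.9% of the gene. The donor at 51803431 took 59.1% of the counts, and the donor at 51767892, used by 8 rows, took 36.0%. In Ttc3, an E3 ubiquitin ligase gene on chromosome 16 that was singled out after its values were seen, 7 rows with 97.4% of 818 counts began at position 94383912. In Tlk1 on chromosome 2, 9 rows with 93.3% of the counts used the acceptor at 70786995. In Rere on chromosome 4, 7 rows with 90.3% used the acceptor at 150406196.

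In Themis on chromosome 10, both ends of a single circle dominated. The donor 28782742 was used by 4 rows with 2605 counts (95.6% of the gene), and the acceptor 28781691 held 2477 counts (90.9%). Bcl11b on chromosome 12 likewise ended 83.3% of its counts at the donor 107989465, and the paired acceptors at 107989830 (60.8%) and 107989827 (22.7%) lie within a few bases of each other, so that rows using them may be the same circle. Itpr2 was the counterexample, because its 24 members spread over many ends and the acceptor with most counts, at 146359487 on chromosome 6, took only 26.4%. Over the 77 genes, the acceptor with most counts held a median of 54.2% of them and the donor with most counts 49.5%.

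The positions are those of the deposited table. The submitters' notes list the build mm8, but 98.8% of the circles with a gene placed in RefSeq lay inside it on GRCm38, and positions are therefore read as GRCm38.

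**Figure D2:**
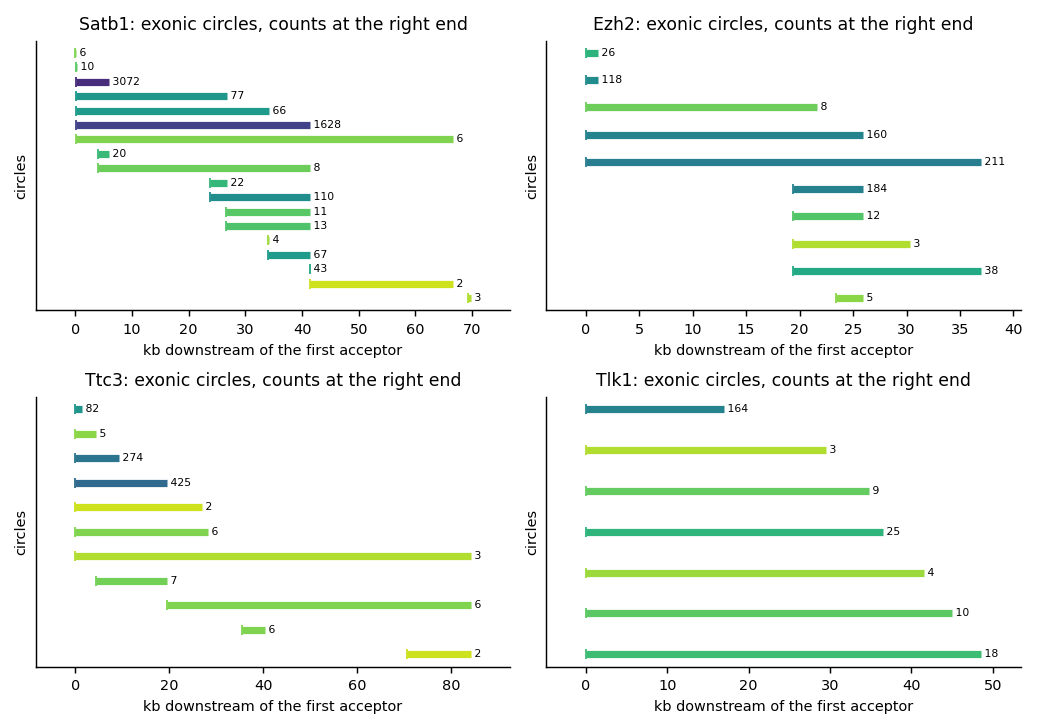
Each bar is a sense-strand circle of annotated exons of Satb1, Ezh2, Ttc3 or Tlk1, drawn from its acceptor to its donor in kb downstream of the first acceptor, with its counts over the 6 libraries at the right end and darker colour for more counts. In Satb1 the bars with 3072 and 1628 counts start together at the left, and in Tlk1 all 7 bars do.

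Circles of a gene often nested as blocks. For 63 members in 37 genes, the spliced length was the exact sum of 2 other circles of the gene, of which the upstream circle began at the same acceptor and the downstream circle ended at the same donor. Because spliced lengths come from the annotation, this says only that the 2 blocks adjoin. A circle can split in several ways, and in 25 of the 63 the longer circle had more counts than both parts of some split. The Satb1 circle novel_circ_002641 of 1609 nt is the sum of novel_circ_002652 (673 nt, 3072 counts) and novel_circ_002639 (936 nt, 110 counts). It had 1628 counts itself, between those of the 2 parts. In Ezh2, the catalytic subunit of the Polycomb repressive complex, novel_circ_004897 (1858 nt, 211 counts) is the sum of novel_circ_004904 (253 nt, 118 counts) and novel_circ_004896 (1605 nt, 38 counts). In Themis, novel_circ_000491 (1511 nt) had 115 counts, fewer than the 2474 of its downstream part novel_circ_000493 (1052 nt).

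Each gene had a leading circle, called dominant here, that was the row with most counts over the 6 libraries. Its share of the gene's counts had a median of 36.8% over the 77 genes, from 18.0% in Wrn, a DNA helicase gene, to 90.8% in Themis. The next circle held a median of 18.4%. The dominant circle held more than 50% in 21 genes. It led alone in all 6 libraries in 19 genes (25 with ties counted), and alone in fewer than 4 libraries in 36. All 19 of the former were among the 41 genes with 100 or more counts, and share and counts went together (Spearman's rho 0.499 over the 77 genes, with no test). The leader was a member in 54 genes, and in the others a single-exon, exon-intron or catalogued circle.

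Satb1 was led by novel_circ_002652 (chr17:51803431-51809287, minus strand), which alone held 21.4% of all member counts. Its share of Satb1 counts was 48.1% (95% Wilson interval 44.3 to 52.0) and 52.5% at 2W, 61.9% and 62.2% (59.7 to 64.7) at 6W, and 57.0% and 60.9% at 3M. Both 2W libraries were therefore below the other 4. The next circle, novel_circ_002641, held 39.8% and 33.5% at 2W, 28.7% and 28.9% at 6W, and 32.4% and 29.8% at 3M, in the opposite order. With 2 libraries an age, an exact permutation test cannot give a p below 0.33, and intervals cover counting error only.

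Themis was led by the single-exon circle novel_circ_000493 (chr10:28781691-28782742) with 2474 counts, at 88.1% to 92.5% in every library. Bcl11b was led by the single-exon circle novel_circ_001449 (374 counts, 57.3%, or 79.0% together with novel_circ_001448, whose acceptor lies a few bases away), Tlk1 by novel_circ_003417 (191 nt, 164 counts, 57.7%) and Ash1l by the catalogued novel_circ_003854 (127 counts, 35.4%), each first in all 6 libraries. In Ttc3, novel_circ_002428 (425 counts) and novel_circ_002427 (274 counts) held 52.0% and 33.5% of the counts. Ezh2 had no such leader, since its 4 largest circles had 211, 184, 160 and 118 counts. Its first circle, novel_circ_004897, held 30.1% and 34.7% at 2W, 32.6% and 26.4% at 6W, and 26.8% and 12.6% (Wilson interval 7.53 to 20.4) at 3M, and it trailed other circles of the gene in both 3M libraries.

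Morc3 was a special case, because its leader novel_circ_002415 (chr16:93847281-93853217, exon-intron type, 488 counts, 44.4%) has the same ends as an antisense row, novel_circ_002416, with 348 counts. Together with rows whose ends differ by a few bases, these made 12 rows from about 6 distinct circles. In Itpr2, novel_circ_005137, with only 77 counts and 21.9%, led alone in 4 libraries and tied for the lead in the others. Nfatc3 was led by the single-exon novel_circ_005704 (84 counts, 25.6%), alone in 3 libraries, and Rere by the catalogued novel_circ_004385 (159 counts, 34.3%), alone in 4. The leaders of Helz, Birc6, Ankhd1 and Vps13b had 24 to 40 counts in all, and led in 3, 2, 3 and 4 libraries, so their leader changed between libraries of this depth.

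**Figure D3:**
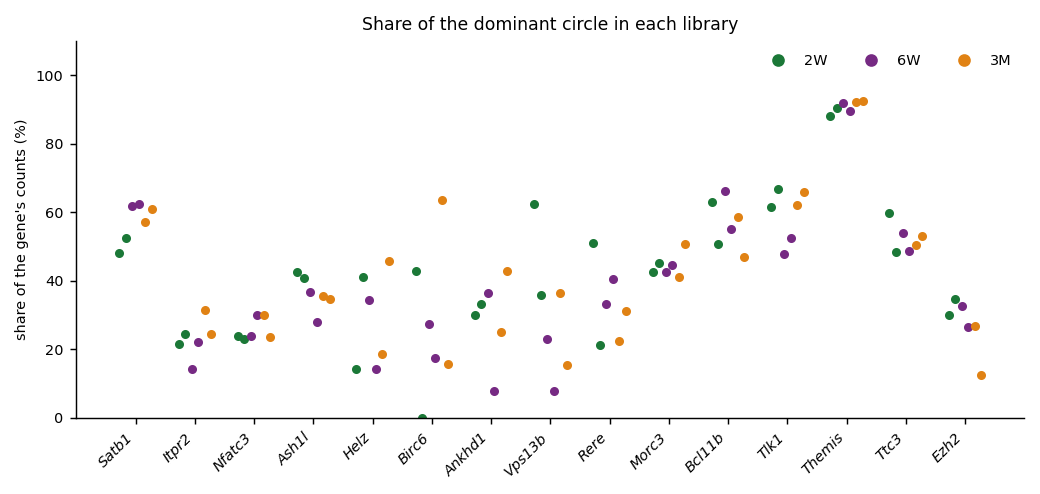
Points give the share of a gene's junction counts held by its dominant circle, in percent, in each of the 6 libraries, coloured by age, for the 12 genes with most rows and for Themis, Ttc3 and Ezh2. Themis stays between 88.1% and 92.5%, the 2W points of Satb1 lie below its others, and genes with about 100 counts scatter widely.

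The share of all junction counts that fell on the 77 genes was highest at 6W. It was 24.7% and 24.1% at 2W (24.4% ± 0.369, SD, n = 2), 25.6% and 26.0% at 6W (25.8% ± 0.313) and 22.1% and 23.3% at 3M (22.7% ± 0.812). The 6W libraries were above both other ages, and the ages did not overlap. The share of the members alone was 15.5% and 14.9%, then 17.3% and 17.3%, then 14.8% and 15.1%. Without Satb1 and Themis the share of the genes was 15.5% and 15.9%, 16.1% and 17.0%, and 14.2% and 14.0%.

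The number of different circles seen in a gene was also highest at 6W. The genes were selected on rows of the pooled table, to which the deeper 6W libraries contributed most, so this number and the share above are tilted to 6W by the selection and are given as a description. After thinning each library to 10663 counts, 4.77 and 4.81 rows per gene were detected at 2W, 5.56 and 5.69 at 6W, and 4.44 and 4.84 at 3M. Before thinning these values were 4.77, 4.81, 6.42, 6.90, 4.51 and 5.47. Over the whole table the thinned number of rows was also highest at 6W, at 2865 and 2898 against 2504 to 2745 in the other 4 libraries.

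Relative to the mRNA of the same genes, circle counts were 5.31 and 5.01 per 1000 mRNA counts at 2W, 8.19 and 9.03 at 6W, and 5.07 and 6.22 at 3M. Other source genes moved in the same order, from 1.17 and 1.16 to 1.69 and 1.82 and then 1.22 and 1.33, so the higher 6W level was not particular to the 77 genes. Circle and mRNA counts come from the same libraries, and reads from exons inside circles can be counted in the mRNA, which cannot be told apart here.

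Single genes differed widely in this ratio. Estimated mRNA counts grow with transcript length and junction counts do not, so the ratio does not give circles per mRNA molecule. Morc3 had 92.5 junction counts per 1000 mRNA counts over the 6 libraries, Rere 31.8, Ezh2 31.7, Themis 25.4 and Ttc3 23.8. Sums cover every row filed under a gene, and those of Morc3 include an antisense row with the same ends as its exon-intron leader. Satb1, with an mRNA level of 720 to 929 FPKM, had 9.25. Birc6 had 0.806 and Tcf12, an E protein of early thymocytes, 0.408. The median was 5.14, against 1.02 for the other source genes, and the rule itself selects on circle rows.

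**Figure D4:**
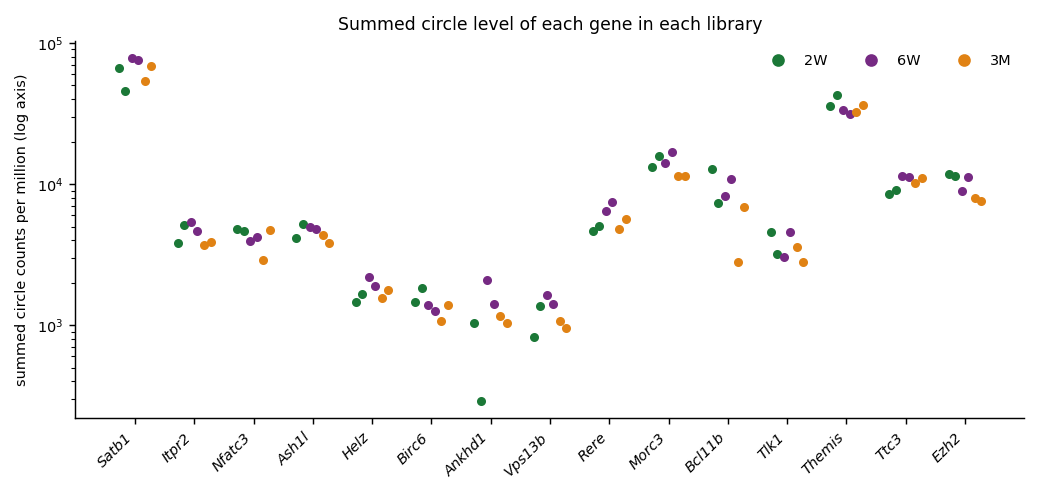
Points give the summed circle counts as CPM (TMM-scaled, log y axis) of a gene in each of the 6 libraries, coloured by age, for the 12 genes with most rows and for Themis, Ttc3 and Ezh2. Satb1 lies between 45829 and 78408 CPM and Themis between 31297 and 42819, and 3M replicate 1 of Bcl11b is low at 2821.

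For single members, the ages were set against each other with the quasi-likelihood test of edgeR. A call here means the study's threshold, which asks for a raw p under 0.05 and a log2 fold change beyond 1 in either direction, and positive values mean higher at the later age. Both comparisons share the 6W libraries. Of the 285 members with 6 or more counts, 17 were called between 2W and 6W (5.96%, against 4.03% of all circRNAs tested), 15 higher and 2 lower at 6W. Between 6W and 3M, 20 were called (7.02%, against 4.50%), 2 higher and 18 lower at 3M. After Benjamini-Hochberg adjustment in edgeR over all circRNAs, 0 and 1 passed 0.05, while 19 and 23 members had an unadjusted p under 0.05. DESeq2 called 1 and 4, with none past adjustment.

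The direction of these calls was shared by the whole table, and the selection of the genes on pooled rows tilts the members' counts of calls and medians towards a higher 6W level. The median log2 fold change of the tested members was 0.42 at 6W and -0.45 at 3M, against 0.36 and -0.33 for all circRNAs tested. Scaling by total counts alone moved the median of all circRNAs by -0.30 and 0.25, so that the members' medians became 0.11 and -0.21, against 0.06 and -0.08. The calls then were 13 (9 higher, 4 lower) and 12 (2 higher, 10 lower), or 4.56% and 4.21% of the members tested against 4.14% and 4.07% of all circRNAs, which is near the background. Leaving out a library moved the first count to 6 without 6W replicate 2, 9 without 6W replicate 1 and 11 without 2W replicate 1, and the other count to 7 without 6W replicate 2.

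The member that passed adjustment was a 255 nt circle of Ckap5, a microtubule polymerase of the mitotic spindle. Novel_circ_003454 (chr2:91562754-91563113) had 3 and 7 counts at 2W, 11 and 24 at 6W, and 0 and 2 at 3M. Both 3M libraries lay below all the others, and the 3M level was lower by 3.61 ± 0.93 on the log2 scale (edgeR quasi-likelihood, adjusted p = 0.0400). As a ratio of counts it was 13.6-fold higher at 6W, with a 95% counting interval of 3.50 to 117. It stayed past the study's threshold in all 11 alternatives, but its adjusted p ran from 0.0233 to 1, and reached 0.264 without 6W replicate 1, 1 without 6W replicate 2, 0.991 without 3M replicate 1 and 0.112 without 3M replicate 2.

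Between 2W and 6W the called member with the smallest p was a 174 nt circle of Ikzf1, the gene of the lymphoid transcription factor Ikaros. Novel_circ_000742 had 8 and 11 counts at 2W, 25 and 53 at 6W, and 29 and 20 at 3M. The 2W and 6W libraries did not overlap, with a log2 fold change of 1.43 ± 0.45 (edgeR quasi-likelihood, adjusted p = 0.569), which was 0.93 without 6W replicate 2. A circle of Nrip1, a corepressor of nuclear receptors, novel_circ_002392, had no count at 2W, 6 and 8 at 6W, and 8 and 0 at 3M. It was at least 1.49-fold higher at 6W, with 3 counts in a library as the floor (edgeR quasi-likelihood, adjusted p = 0.705). The 3M libraries of this circle thus lay at both extremes.

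The 2 members that were lower at 6W, from the histone-modifying enzyme genes Nsd1 and Crebbp, rested on few counts. The Nsd1 circle novel_circ_001628 had 3 and 2 counts at 2W, 0 and 0 at 6W and 3 and 0 at 3M, at least 1.15-fold lower at 6W. The Crebbp circle novel_circ_002221 had 6 and 7 counts, then 2 and 2, then 0 and 3, a log2 fold change of -2.19 ± 1.11. Both had an edgeR quasi-likelihood adjusted p of 0.874, and each lost its call when any single 2W or 6W library was left out.

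The dominant Satb1 circle lay near both thresholds in the fit over all 6 libraries. Novel_circ_002652 had 307 and 248 counts at 2W, 769 and 867 at 6W, and 313 and 568 at 3M. In normalised counts, scaled separately from those of gene sums, this was 30785 and 22615, 53418 and 51555, and 29543 and 41521 CPM, with both 6W libraries above all the others. The log2 fold change at 6W was 0.98 ± 0.23 (edgeR quasi-likelihood, adjusted p = 0.0515), and over the alternatives it ran from 0.66 to 1.07, with adjusted p from 0.0926 to 1, none under 0.05. Novel_circ_002641, which starts at the same acceptor, had 25470 and 14408, 24799 and 23964, and 16801 and 20322 CPM, where 2W overlapped both other ages and 6W lay above 3M.

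Among the 18 members lower at 3M, a Strbp circle had the smallest p after that of Ckap5. Strbp encodes a double-stranded RNA binding protein, and its novel_circ_003367 had 16 and 9 counts at 2W, 17 and 23 at 6W and 2 and 4 at 3M. The log2 fold change of -2.33 ± 0.67 at 3M (edgeR quasi-likelihood, adjusted p = 0.115) stayed past the study's threshold in all 12 alternatives. The leading Ezh2 circle, novel_circ_004897, had 34 and 41 counts at 2W, 46 and 55 at 6W and 22 and 13 at 3M, with -1.13 ± 0.38 (edgeR quasi-likelihood, adjusted p = 0.434). Its call was lost in 5 of 12 alternatives, with values of -0.99 in the 4 libraries of both ages alone, -0.89 in DESeq2, -0.87 with filterByExpr, -0.86 with total-count scaling and -0.64 without 3M replicate 2.

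The 2 members higher at 3M rested on few counts. The Pum2 circle novel_circ_001237, from the gene of an RNA-binding translational repressor, had 2 and 1 counts at 2W, 1 and 3 at 6W and 14 and 6 at 3M (log2 fold change 2.67 ± 0.98, edgeR quasi-likelihood adjusted p = 0.600). The Fgfr2 circle novel_circ_005428, which lies inside its gene, had 3 and 0 counts at 2W, 3 and 1 at 6W and 12 and 3 at 3M (2.25 ± 1.06, adjusted p = 0.877). Neither was called without 3M replicate 1, Pum2 also not without 6W replicate 1, and Fgfr2 also not without 6W replicate 2.

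Summed over all circles of a gene, 5 of the 77 genes were called between 2W and 6W (6.49%, against 4.81% of all source genes tested), 4 higher and 1 lower. Between 6W and 3M, 3 were called, all lower at 3M (3.90%, against 4.97%). None passed adjustment by edgeR in either comparison, with 9 and 10 genes at an unadjusted p under 0.05. DESeq2 called none at 6W and at 3M only Ascc3, a helicase gene named after its values were seen, which was higher (24 and 27, 18 and 38, and 37 and 35 counts). Total-count scaling gave 4 higher and 1 lower at 6W (4.04% of all source genes called) and 1 higher (also Ascc3) and 2 lower at 3M (4.97%). The median log2 fold change was 0.39 and -0.32, against 0.18 and -0.14 over all source genes tested, and since the selection on pooled rows favours genes with many counts at 6W, nothing is read from this difference. Leaving out 2W replicate 1 raised the first count to 12, and leaving out any 6W or 3M library raised the other count to between 5 and 7.

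Ankhd1, an ankyrin-repeat scaffold gene, had 10 and 3 summed counts at 2W, 33 and 26 at 6W and 12 and 14 at 3M. Foxp1, a forkhead factor of lymphocytes, had 10 and 5, then 24 and 38, then 16 and 12. The 2W and 6W libraries of both genes did not overlap, with log2 fold changes of 1.39 ± 0.52 and 1.24 ± 0.50 (edgeR quasi-likelihood, adjusted p = 0.608 and 0.771), and both calls were lost without 2W replicate 2. Ankhd1 also lost its call without 6W replicate 1, and Foxp1 without 6W replicate 2. The gene lower at 6W was Xrcc6, the Ku70 subunit of DNA end joining, with 2075 and 1651 CPM at 2W, 946 and 869 at 6W, and 1848 and 663 at 3M (-1.03 ± 0.47, edgeR quasi-likelihood adjusted p = 0.876). Its call was lost without 2W replicate 1 or either 6W library.

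Agtpbp1, a carboxypeptidase that trims glutamate chains of tubulin, was called in both directions. It had 3 and 5 counts at 2W, 20 and 20 at 6W, and 6 and 3 at 3M. The summed level was higher by 1.53 ± 0.69 at 6W and lower by 1.58 ± 0.67 at 3M on the log2 scale (edgeR quasi-likelihood, adjusted p = 0.876 and 0.681). Since both changes use the same 6W libraries, they are not independent. Each call was lost without either 6W library, the first also without 2W replicate 1 and the other without 3M replicate 2. Rabep1, an effector of endosome fusion, had 30 and 22 counts at 2W, 57 and 79 at 6W and 12 and 35 at 3M (-1.03 ± 0.33, edgeR quasi-likelihood adjusted p = 0.368), which was -0.91 by total counts and was not called without 3M replicate 1 or 6W replicate 2.

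Bcl11b was not called but had the lowest adjusted p of the 77 genes at 3M. Its summed circles stood at 12867 and 7282 CPM at 2W, 8200 and 10921 at 6W, and 2821 and 6921 at 3M, with 3M below the other ages, as the double-positive thymocyte markers were, and the part of those cells in this was not tested. The log2 fold change at 3M was -0.94 ± 0.25 (edgeR quasi-likelihood, adjusted p = 0.0610), and it ran from -0.46 without 3M replicate 1 to -1.70 without 3M replicate 2. Its adjusted p was under 0.05 in 4 of 12 alternatives (lowest 0.0330, without 2W replicate 2, and up to 1), and it was called in 2, without 6W replicate 1 and without 3M replicate 2. Its mRNA was 880 and 889 CPM at 6W and 737 and 691 at 3M (-0.31 ± 0.09). Satb1 summed circles were 66203 and 45829 CPM at 2W, 78408 and 75689 at 6W, and 53406 and 68691 at 3M, with 0.46 ± 0.19 at 6W (edgeR quasi-likelihood, adjusted p = 0.876), while its mRNA was 5530 and 5853, 4604 and 4804, and 5115 and 4190 CPM (-0.27 ± 0.11 at 6W). The Satb1 circle value at 6W was 0.75 without 2W replicate 1 (edgeR quasi-likelihood, adjusted p = 0.00671) and 0.22 without 2W replicate 2 (adjusted p = 0.860).

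None of the 77 mRNAs was called in either comparison (0%, against 5.36% and 2.11% of all genes tested), and the log2 fold changes ran from -0.64 to 0.29 at 6W and from -0.86 to 0.81 at 3M. None passed adjustment in edgeR, with 16 and 15 genes at an unadjusted p under 0.05, while DESeq2 gave 2 and 4 past an adjusted 0.05 and called none. The median was -0.20 at 6W, with 11 of 77 genes above 0, and -0.02 at 3M. With total-count scaling, 21 of 77 were above 0 at 6W and the median was -0.13. Over all genes the medians were -0.01 and 0.02. Without 3M replicate 1, 2 genes were called at 3M.

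**Figure D5:**
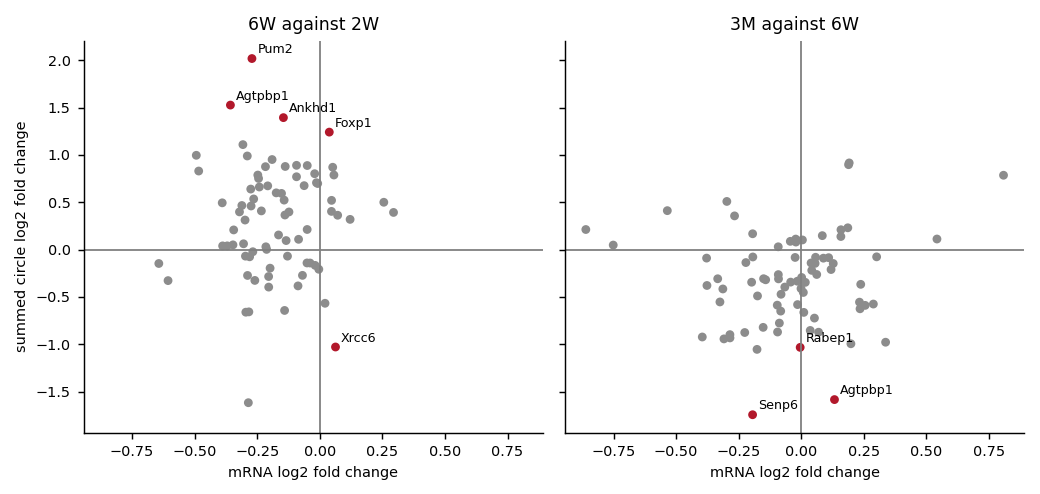
Each point is 1 of the 77 genes, with the log2 fold change of its mRNA on the x axis and of its summed circles on the y axis, for 6W against 2W (left) and 3M against 6W (right). Red points are called on summed circles (5 and 3 genes), and the mRNA values span -0.64 to 0.29 and -0.86 to 0.81 while the circle values, from far fewer counts, span -1.62 to 2.02 and -1.74 to 0.92.

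The ratio of summed circles to mRNA was tested by fitting circle counts, with the gene's mRNA count in the same library as a fixed scaling. Error in the mRNA counts is therefore not part of the p-values or the ± values. Between 2W and 6W, 8 of 77 genes were called (10.4%, against 5.45% of all genes tested), 7 higher (Zfp280d, Ankhd1, Agtpbp1, Pum2, Taok1, Foxp1 and Chd2) and Xrcc6 lower. Between 6W and 3M, 4 were called (5.19%, against 4.98%), all lower (Agtpbp1, Naa16, Mga and Senp6). None passed adjustment in edgeR, with 13 and 8 genes at an unadjusted p under 0.05. The median log2 ratio change was 0.48 and -0.28, against 0.30 and -0.17 over all genes. The same tilt to 6W applies to these counts and medians, because the selection used the circle rows. This fit removes the overall difference in circle counts between libraries. In a fit without that term, chosen after seeing the data, 30 genes were called at 6W, all higher (12.1% of all genes were called), and 17 at 3M, all lower (8.33%), with 4 and 1 past adjustment. The medians were then 0.84 and -0.63, against 0.65 and -0.53 for all genes.

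Agtpbp1 was called on the ratio in both comparisons, at 2.53 and 3.62 junction counts per 1000 mRNA counts at 2W, 15.9 and 13.9 at 6W, and 4.51 and 2.36 at 3M. The 6W libraries were above all the others, by 1.88 ± 0.69 on the log2 scale (edgeR quasi-likelihood, adjusted p = 0.472), and 3M was lower again by 1.72 ± 0.67. Zfp280d, a zinc finger gene, stood at 3.50 and 1.55, then 9.98 and 7.23, then 2.95 and 6.13 per 1000 (1.45 ± 0.49 at 6W, edgeR quasi-likelihood adjusted p = 0.449). Ankhd1 followed with 1.96 and 0.610, 5.69 and 4.06, and 2.50 and 2.24 (1.54 ± 0.54). Naa16, a subunit of an N-terminal acetyltransferase, stood at 29.8 and 24.2 per 1000 at 6W and 6.37 and 10.9 at 3M (-1.27 ± 0.54). The Agtpbp1 and Naa16 calls at 3M, and the Agtpbp1, Zfp280d and Ankhd1 calls at 6W, were lost without 6W replicate 1. Zfp280d and Ankhd1 also lost theirs without 2W replicate 2, and at 3M Agtpbp1 did without 3M replicate 2 and Naa16 without 3M replicate 1. Without 2W replicate 1 the count at 6W was 15 and without 6W replicate 2 it was 5, and at 3M it was 10 without 3M replicate 2 and 2 without 6W replicate 1.

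By function, of 25 regulators of the T lineage, 19 made a circle and 8 were among the 77: Satb1, Nfatc3, Bcl11b, Foxp1, Themis, Ikzf1, Ets1 and Tcf12, with 9469 counts and 50 members. On summed circles 1 of the 8 (Foxp1) was called higher at 6W, none was called lower, and none was called at 3M, beside 4.81% and 4.97% of all source genes. The medians were 0.17 and -0.32, beside 0.18 and -0.14 over all source genes. Their mRNA medians were -0.18 and -0.16, with none called, and on the ratio Foxp1 was called at 6W. This ratio call held in 6 of 10 alternatives. It was lost with total-count scaling, with summed FPKM in place of mRNA counts, without 2W replicate 2 and without 6W replicate 2.

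Chromatin regulators gave 7 of 52 genes (46 made a circle): Ash1l, Nsd1, Ezh2, Ncor1, Chd2, Ep300 and Crebbp, with 1564 counts and 51 members. None was called on summed circles or mRNA, the summed medians were 0.03 and -0.26, and Chd2 alone was called on the ratio at 6W, beside 5.45% of all genes. The Chd2 call held in 4 of 10 alternatives. It was lost with total-count scaling, with summed FPKM in place of mRNA counts and without any single 2W or 6W library. Of 40 genes of the cell cycle, centrosome and DNA repair, Ckap5, Stag1 and Cep192 were among the 77 (280 counts, none called on summed circles, medians 0.64 and -0.32). Of 32 genes of antigen receptor and kinase signalling, 23 made a circle but only Prkcb was included (49 counts), and of 28 listed ubiquitin and proteasome genes, 26 made a circle and Birc6 was included. This list does not hold Ttc3 and Zranb1. Of 16 genes long described as circRNA sources, Zranb1, Mbnl1 and Crebbp were included (413 counts, none called). The other 55 of the 77 genes were on none of these lists.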

How the data were processed

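The circRNA values that the authors deposited are counts of back-splice reads and RPM, which is the same count scaled by the library's sum of junction counts (largest difference below 1e-06). The lowest total of a deposited circRNA is 2 counts. For mRNAs, the authors deposited estimated counts (expected counts) per transcript and FPKM. These were rounded and added up over the transcripts of a symbol, with 665 symbols pooled across upper and lower case, and 0.894% of the counts had no symbol. The submitters' notes list Bowtie 0.12.2 and the build mm8, and the circRNA caller is not given in the sources used here. The lncRNA and miRNA tables were not used here.

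Rows were grouped by source gene, and back-splice acceptors and donors were read from both ends and the strand. The fits used edgeR 4.0.16 under R 4.3.3 (TMM scaling, quasi-likelihood F test, age as the only factor over all 6 libraries), with DESeq2 1.42.0 as an alternative, on circRNAs with at least 6 counts and gene sums with at least 10. Benjamini-Hochberg adjustment was over all features of a layer. The scripts were tested on simulated data. Python 3.11.15, numpy 2.4.6 and pandas 2.3.3 served for the tables. Intervals of shares are 95% Wilson intervals, and a floor of 3 counts corresponds to 137 to 281 RPM. Gene places come from RefSeq on GRCm38.

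Genes were named when they were among the 12 with most rows, passed an adjusted p of 0.05, had the smallest p in each direction among calls whose libraries do not overlap (2 each), led the genes at 7 or 8 rows, or stood on a function list. An item that the rule names is not reported here. The members and lists were chosen with earlier results of these data known. Alternatives were another scaling, filter, tool, row minimum and sample set. Same-numbered replicates did not deviate together at every pair of ages (correlations from -0.0192 to 0.0332 for circles and -0.0191 to 0.0542 for gene sums, and for mRNA -0.0495, -0.150 and 0.345), so no pairing was used. P-values of the fits rest on the spread between replicates, estimated jointly for all ages and moderated over all features. They do not measure a feature's own spread at each age.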

Additional observations from a re-analysis of the deposited data

How the results depend on the processing

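The number of called member circles changed with several settings, of which DESeq2 changes the tool and the scaling together. For 6W against 2W it was 17, and it was 1 with DESeq2, 3 with filterByExpr by age, 28 for genes with 6 or more rows, 10 for genes with 10 or more, and 6 to 21 when 1 library was left out. For 3M against 6W it was 20, and it was 4 with DESeq2, 2 with filterByExpr, 12 with total-count scaling, 33 and 10 at those row minima, 34 over all rows of the genes, and 7 to 21 when 1 library was left out. On summed circles the 5 genes called at 6W became 0 with DESeq2, 8 and 3 at those row minima, and 4 to 12 with 1 library left out. The 3 genes called at 3M became 1 with DESeq2, which was none of these 3 but Ascc3 in the opposite direction, then 10 and 1 at those row minima, and 3 to 7 with 1 library left out. On mRNA, the 0 genes at 3M became 0 to 2 with 1 library left out. On the ratio, the 8 and 4 genes became 30 and 17 without a circRNA library term (chosen after seeing the data), and 5 to 15 and 2 to 10 with 1 library left out. The cause of these changes was not tested. A row minimum changes how many genes are counted.

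With the replicate block, member circles called were 12 and 15, genes on summed circles 5 and 3, on mRNA 0 and 0 and on the ratio 8 and 4. The labels give same-numbered replicates nothing in common but the number, and whether they share a batch is not known.

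Among the descriptions, the share of counts on the 77 genes was 24.29% over the libraries. It was 37.25% for genes with 6 or more rows, 18.5% for 10 or more, 23.46% among exonic circRNAs, and 15.44% without Satb1 and Themis (chosen after seeing the data). The median share of the dominant circle, 36.84%, became 44.79% over uncatalogued multi-exon rows and 45.74% in genes with 100 or more counts. The share of members with a shared end, 83.78%, was 76.49% for rows with 6 or more counts. Circles per gene, 5.017 at equal depth, were 5.476 unthinned and 3.461 with at least 2 counts. The number of genes with 8 or more rows, 77, was 73 after merging close rows and 30 over uncatalogued multi-exon rows, both chosen after seeing the data. Depth limits the single circles, since 239 of the 524 members had under 6 counts and were not tested.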
